A study of Mus musculus with 6 samples.

Results

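The killer-cell lectin-like receptors (Klr genes) examined here are Klrd1, Klrc1, Klrc2, Klre1, Klrk1, Klrb1c, Klrg1, Klra3, Klra7 and Klra9, 10 genes taken by their symbols from a deposited table of 55951 genes, each with 1 row. RNA sequencing with poly-A selection was done on CD8+ T cells of effector-memory phenotype, sorted from the spleen of mice in which ovalbumin was used to model asthma. The S100A4-positive group is the EGFP+ fraction (CD3+ CD8+ CD4- CD44+ CD62L- EGFP+), and the S100A4-negative group is the EGFP- fraction of the same gate, with 3 libraries each. All libraries came from C57BL/6 mice that carry an S100A4-EGFP reporter, so both groups share the reporter allele and the ovalbumin treatment, and the labels give no age. Whether the 3 samples of a group are different animals is not said in the labels, and the p-values then measure only the spread between these samples, which may be technical.

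Killer-cell lectin-like receptors are membrane proteins of natural killer (NK) cells and of some T cells that read MHC class I, MHC-like stress ligands or cadherins on other cells. Inhibitory members recruit phosphatases through motifs in their tails, and activating members signal through adaptor proteins such as DAP10 and DAP12. On CD8+ T cells, several of them are acquired with antigen experience and are used as markers of effector and memory states.

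The libraries held 14925260 to 18660188 reads, recovered from the deposited values. S100a4, the gene the reporter follows, had 9, 25 and 11 reads in the S100A4-positive libraries, against 0, 3 and 1 in the S100A4-negative libraries. Levels are FPKM (fragments scaled to gene length and library size) as deposited, so levels of different genes can be compared per length. Log2 fold changes were taken between log2(FPKM + 1) values, S100A4-positive over S100A4-negative, so changes of low genes are understated. They were tested with limma over the 13241 genes with a mean of at least 1 FPKM, and a gene was called at a Benjamini-Hochberg adjusted p under 0.05. The median log2 fold change over these genes was -0.36. Median-of-ratios rescaling moved this median to -0.027 and the calls of all genes to 3618 higher and 3286 lower, beside 2512 higher and 5741 lower as deposited.

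Most of the receptor genes were lower in S100A4-positive cells. Of the 9 members tested, 8 fell and 0 rose, where 43.4% of all tested genes were called lower, 19.0% higher and 62.3% in either direction. On the log2(FPKM + 1) scale the steepest falls were those of Klrc1 and Klrc2, which encode the NKG2A and NKG2C chains, and the slightest were those of Klrk1, Klrg1 and Klrb1c. Klra3 was not called, and Klra7 had a mean of 0.831 FPKM and was not tested. Klra9, Klrb1c and Klre1 passed the filter on low values only through their level in the S100A4-negative libraries, and Klra3 only through the S100A4-positive libraries; a gene that does so must differ between the groups, so the count over the tested members is no support for a direction. The 5 members with a mean of at least 1 FPKM in both groups, Klrc1, Klrc2, Klrd1, Klrg1 and Klrk1, were each called lower. In bulk samples, fewer cells that express a gene and less of its RNA in each cell cannot be told apart.

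**Figure D1:**
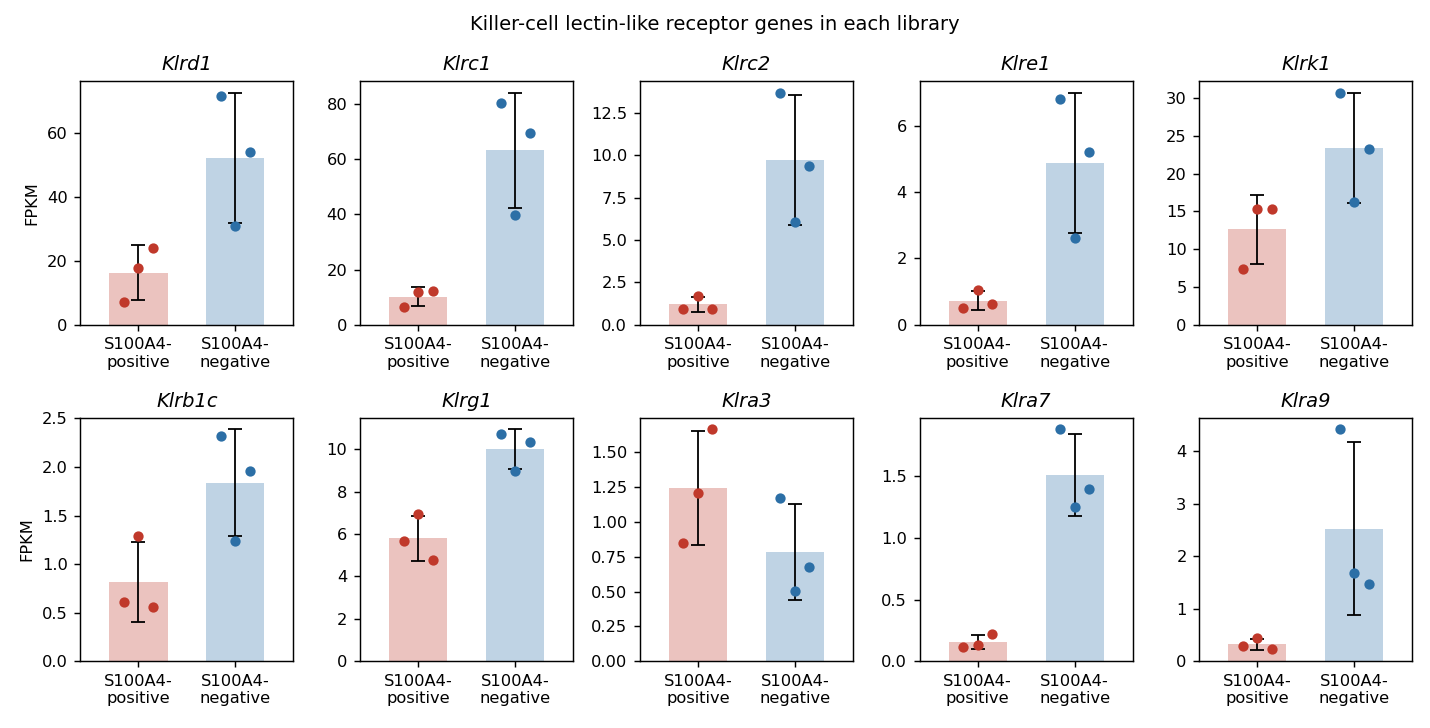
FPKM of the 10 receptor genes (vertical axes, each with its own scale from 0) in the 3 S100A4-positive and the 3 S100A4-negative libraries. Points are libraries, bars are group means and error bars are SD (n = 3); the points of Klrb1c and Klra3 overlap between the groups, and those of the other 8 genes do not.

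Klrd1 encodes CD94, the chain that pairs with NKG2 proteins to form receptors for the class I-like molecule Qa-1. The gene (ENSMUSG00000030165) lies at chr6:129591782-129598775 of GRCm38, the build that mm10 names, on the + strand. It was read at 6.95, 17.9 and 24.0 FPKM in S100A4-positive libraries 1 to 3, against 71.5, 30.9 and 54.1 FPKM in S100A4-negative libraries 1 to 3. Every S100A4-positive library lay below every S100A4-negative one, although S100A4-positive library 3 and S100A4-negative library 2 came close. Klrd1 averaged 16.3 ± 8.66 FPKM in S100A4-positive and 52.2 ± 20.4 FPKM in S100A4-negative libraries (SD, n = 3 each). Its log2 fold change was -1.69 (SE 0.46, limma adjusted p = 0.0147).

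Klrc1 encodes NKG2A, the inhibitory partner of CD94. It lies at chr6:129666015-129678973 on the - strand. Its values were 6.46, 12.0 and 12.3 FPKM in the S100A4-positive libraries, against 80.4, 39.8 and 69.5 FPKM in the S100A4-negative libraries, from 114 to 222 and from 738 to 1422 reads. The mean in S100A4-positive libraries was 16.2% of that in S100A4-negative libraries, with no overlap. Klrc1 fell by 2.50 on the log2 scale (SE 0.32, limma adjusted p = 5.70e-04), the most of any member with a pseudocount of 1; with a pseudocount of 0.1, Klrc2 fell more (-2.89, against -2.61 for Klrc1).

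Klrc2 encodes NKG2C, the activating counterpart that also pairs with CD94, and lies next to Klrc1 at chr6:129647496-129660689. It was read at 0.953, 1.71 and 0.931 FPKM in S100A4-positive libraries and at 13.7, 6.08 and 9.35 FPKM in S100A4-negative libraries. The groups did not overlap, and Klrc2 fell by 2.24 on the log2 scale (SE 0.29, limma adjusted p = 5.96e-04). Of the distinct 50-base stretches of Klrc1 transcripts, 36.6% also occur in Klrc2, and 12.4% of those of Klrc2 occur in Klrc1, so the division of reads between both genes is uncertain.

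The balance of these chains could be followed within each library. Klrc1 exceeded Klrc2 by 1.93, 2.26 and 2.78 log2 units in S100A4-positive libraries and by 2.47, 2.53 and 2.77 log2 units in S100A4-negative libraries. These ranges overlapped, and the difference between groups of -0.26 was within the spread (exact two-sided permutation p = 0.5). It was -0.068, -0.49 and -0.17 without S100A4-positive replicate 1, S100A4-positive replicate 3 and S100A4-negative replicate 3, and 0.28 with a pseudocount of 0.1. Against its partner Klrd1, Klrc1 stood at -0.092, -0.54 and -0.92 log2 units in S100A4-positive libraries, against 0.17, 0.36 and 0.36 log2 units in S100A4-negative libraries. Klrc1 was therefore below Klrd1 in each S100A4-positive library and above it in each S100A4-negative library. The difference of -0.81 reached the smallest p that 3 against 3 allows (exact two-sided permutation p = 0.1; adjusted 0.217 over the 13 ratios tested).

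Klre1 encodes a receptor chain that forms dimers with the products of Klri1 or Klri2. It lies at chr6:129577905-129585827. Its level was 0.497, 1.04 and 0.634 FPKM in S100A4-positive libraries, against 6.82, 2.62 and 5.20 FPKM in S100A4-negative libraries, with no overlap. Klre1 fell by 1.71 on the log2 scale (SE 0.30, limma adjusted p = 0.00224), and its log2 fold change was -2.55 with a pseudocount of 0.1. The S100A4-positive values rest on 13 to 24 reads.

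Klrk1 encodes NKG2D, an activating receptor for stress-induced class I-like ligands, which costimulates CD8+ T cells through the adaptor DAP10. It lies at chr6:129610323-129623864. Klrk1 was read at 7.33, 15.3 and 15.3 FPKM in S100A4-positive libraries and at 30.7, 16.2 and 23.3 FPKM in S100A4-negative libraries. The groups did not overlap, but S100A4-positive libraries 2 and 3 were close to S100A4-negative library 2. The log2 fold change was -0.86 (SE 0.32, limma adjusted p = 0.0482). This call was lost in 12 of 16 alternatives, among them the fits without S100A4-positive replicate 1 or 2 (limma adjusted p = 0.102 and 0.0541) and without S100A4-negative replicate 1 or 3 (0.142 and 0.112), and the log2 fold change was -0.54 without S100A4-positive replicate 1 and -0.51 with median-of-ratios rescaling.

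Klrg1 encodes an inhibitory receptor for cadherins that marks terminally differentiated effector CD8+ T cells. It lies apart from the other members, at chr6:122270596-122282882. Its FPKM was 5.68, 6.92 and 4.77 in S100A4-positive libraries, against 10.7, 8.95 and 10.3 in S100A4-negative libraries. The libraries within a group were closer together than for the NKG2 genes, and the groups did not overlap. Klrg1 fell by 0.71 on the log2 scale (SE 0.16, limma adjusted p = 0.00772). The call was lost with median-of-ratios rescaling, quantile normalization and voom with the authors' size factors (limma adjusted p = 0.108, 0.0765 and 0.0966), where the log2 fold change was -0.37, -0.42 and -0.43.

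Klrb1c encodes the NK1.1 antigen, an activating receptor by which NK cells and NKT cells of C57BL/6 mice are recognised. It lies at chr6:128778485-128789215, and 13.9% of its exon bases also belong to Gm44511 on the same strand. It was low in every library, at 0.611, 1.29 and 0.557 FPKM in S100A4-positive and 2.32, 1.24 and 1.96 FPKM in S100A4-negative libraries. The groups overlapped, since S100A4-positive library 2 was above S100A4-negative library 2. The log2 fold change of -0.65 (SE 0.24) passed with a limma adjusted p of 0.0448, and 9 of 15 alternatives lost the call, among them the fits without S100A4-positive replicate 1 or 3 (0.104 and 0.129) and without S100A4-negative replicate 1 or 3 (0.126 and 0.112).

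The members of the Klra family encode the Ly49 receptors, most of which inhibit the cell on contact with classical MHC class I molecules. Klra9, the gene of Ly49I, lies at chr6:130178675-130193112 and was read at 0.295, 0.446 and 0.240 FPKM in S100A4-positive libraries, against 4.41, 1.69 and 1.47 FPKM in S100A4-negative libraries. S100A4-negative library 1 stood well above the other 2 of its group, and the groups did not overlap. Klra9 fell by 1.32 on the log2 scale (SE 0.31, limma adjusted p = 0.00807), and its log2 fold change was -2.48 with a pseudocount of 0.1. These rest on 5 to 8 reads per S100A4-positive library and 33 to 90 per S100A4-negative library.

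Klra7, the gene of Ly49G, had 0.114, 0.129 and 0.223 FPKM in S100A4-positive libraries, which are 2, 2 and 4 reads, against 1.88, 1.25 and 1.40 FPKM in S100A4-negative libraries, from 33, 23 and 27 reads. The groups were far apart, but the gene lay under the filter. In the fit without a filter, where 20.8% of 28627 genes were called lower, its log2 fold change was -1.11 (SE 0.14, limma adjusted p = 0.00246). Klra7 lies at chr6:130218605-130233322.

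Klra3, the gene of Ly49C, was the member whose mean was higher in S100A4-positive libraries. It lies at chr6:130323289-130337574. Its FPKM was 0.850, 1.21 and 1.66 in S100A4-positive and 1.17, 0.506 and 0.675 in S100A4-negative libraries, and the groups overlapped. The log2 fold change of 0.33 (SE 0.22) did not pass (limma adjusted p = 0.226), and no alternative called it. Reads of Klra3 and Klra9 can be exchanged in counting, since 13.5% of the 50-base stretches of Klra3 occur in Klra9 and 13.1% of those of Klra9 in Klra3. The shares that occur in any other gene are 20.7% for Klra3 and 31.5% for Klra9.

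The groups did not overlap in 7 of the 9 tested members, with S100A4-positive libraries below, where 49.1% of the tested genes did the same and 70% did not overlap in either direction. By the authors' deposited table, which rests on scaled read counts, 4 of the 10 members, Klrc1, Klrc2, Klre1 and Klra7, were lower at an adjusted p under 0.05 and 0 were higher. Of the 28627 genes with an adjusted p in that table, 7.35% were called lower and 18.9% in either direction. The authors' deposited table gives Klrd1, Klrk1 and Klrg1 log2 fold changes of -1.29, -0.49 and -0.39 with adjusted p of 0.0894, 0.544 and 0.470. The members also ran together within the S100A4-negative group: all 10 were highest in S100A4-negative library 1, and 9 were lowest in S100A4-negative library 2. This order was not particular to them. Cd8b1, at 186, 92.9 and 146 FPKM, and Eomes, at 69.0, 25.9 and 40.9 FPKM, had it in S100A4-negative libraries 1 to 3, while Cd3d did not. How many of all genes had it was not counted.

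The make-up of the receptor transcripts, described here after the values were seen and without a test, differed as well. Summed over the 10 members, the level was 29.7, 57.9 and 60.6 FPKM in S100A4-positive libraries, against 224, 109 and 177 FPKM in S100A4-negative libraries. Klrc1 made up 20.9% ± 0.754 of this sum in S100A4-positive and 37.2% ± 1.75 in S100A4-negative libraries (SD, n = 3 each). Klrk1 made up 25.4% ± 0.909 in S100A4-positive and 13.9% ± 0.866 in S100A4-negative libraries. The shares of Klrd1, 31.3% ± 8.16 in S100A4-positive and 30.2% ± 1.89 in S100A4-negative libraries, lay within the spread of each other.

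**Figure D2:**
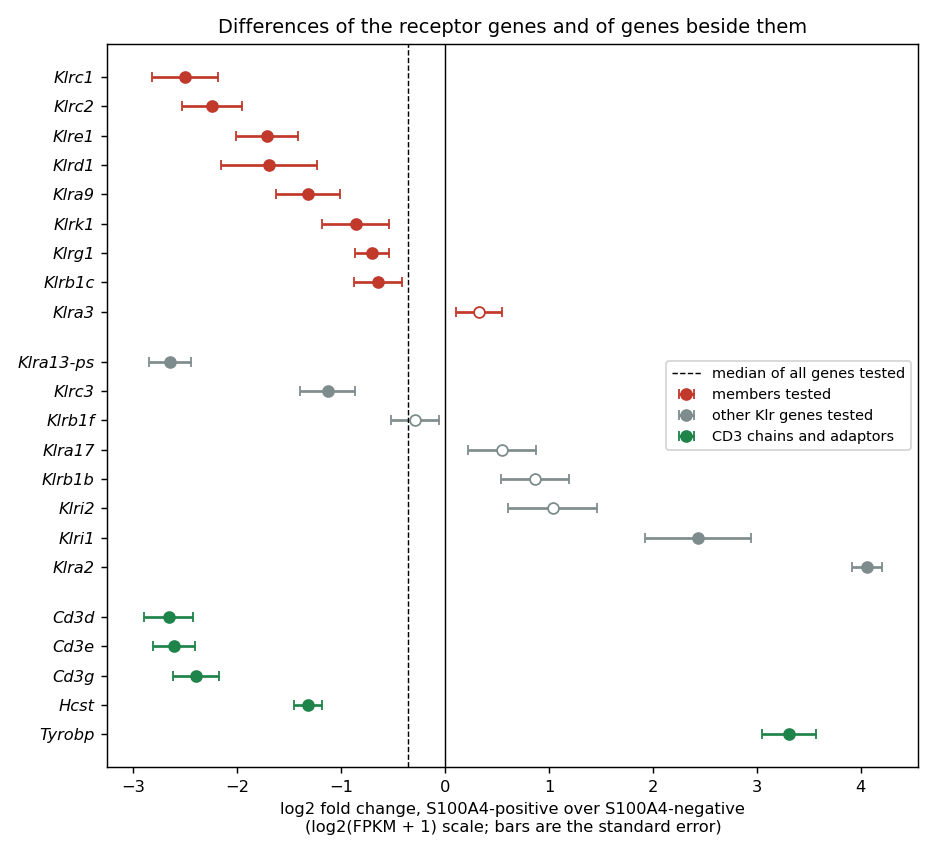
Log2 fold change, S100A4-positive over S100A4-negative, with its standard error (horizontal axis) for the tested members, the other tested Klr genes and, for comparison, the CD3 chains and the adaptor genes Hcst and Tyrobp. Filled points were called at an adjusted p under 0.05, and the dashed line is the median of all tested genes at -0.36; the members lie from -2.50 to 0.33, and Klra2, Klri1 and Tyrobp lie far to the right.

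The table holds 21 further Klr genes, of which 8 were tested, with 2 called higher, 2 lower and 4 not called. Of these, Klra2 and Klrb1f had a mean of at least 1 FPKM in both groups. Klri1, Klri2, Klrb1b and Klra17 passed the filter only through the S100A4-positive libraries, and Klrc3 and Klra13-ps only through the S100A4-negative libraries, so these counts are no support for a direction. Klra2, the gene of Ly49B, rose to 34.4, 38.2 and 31.5 FPKM in S100A4-positive libraries, against 1.13, 1.31 and 0.987 FPKM in S100A4-negative libraries. This was the largest log2 fold change of any tested Klr gene, at 4.06 (SE 0.14, limma adjusted p = 6.33e-06). Klri1, whose product can pair with that of Klre1, rose by 2.44 (SE 0.51, limma adjusted p = 0.00512), with 2.46, 10.95 and 14.6 FPKM in S100A4-positive and 0.492, 0.604 and 0.703 FPKM in S100A4-negative libraries. Klre1 and Klri1 thus moved in opposite directions.

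Klri2, the other partner of Klre1, had 0.528, 3.99 and 3.51 FPKM in S100A4-positive and 0.587, 0.546 and 0.630 FPKM in S100A4-negative libraries and did not pass (limma adjusted p = 0.0687). In S100A4-positive library 1, Klri2 was at the level of the S100A4-negative libraries. Klrb1b did not pass either, with a log2 fold change of 0.86 (limma adjusted p = 0.0508), and 7 of 15 alternatives called it higher. Without S100A4-positive replicate 1, Klri2, Klrb1b and Klra17, which entered the test through their level in the S100A4-positive libraries, were also called higher (limma adjusted p = 6.21e-04, 0.00445 and 0.027).

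Klrc3, which encodes the NKG2E chain, fell by 1.13 (SE 0.26, limma adjusted p = 0.00802), and its neighbours Klrc1 and Klrc2 fell as well. Klrc3 rests on 1, 1 and 7 reads in S100A4-positive libraries, against 26, 12 and 28 reads in S100A4-negative libraries. Of its 50-base stretches, 31.1% also occur in Klrc2, so the division of reads between these genes is uncertain. The transcribed pseudogene Klra13-ps was read at 0.540, 0 and 0.377 FPKM in S100A4-positive libraries, against 7.70, 6.62 and 6.80 FPKM in S100A4-negative libraries and fell by 2.64 on the log2 scale (SE 0.20, limma adjusted p = 7.70e-05). Some 13.7% of its 50-base stretches occur in Klra7. Klra17 and Klrb1f, the remaining tested genes, were not called. The 13 other Klr genes had means of at most 0.828 FPKM, and without a filter 5 of them were called lower and 0 higher.

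All 31 Klr genes lie on chromosome 6. The 29 other than Klrg1 and Klrg2 lie within chr6:128609227-131247362, a stretch of 2638 kb that holds the natural killer gene complex. Of the genes called higher, Klri1 lies directly beyond a run of genes that fell. Klre1, Klrd1, Klrk1, Klrc3, Klrc2 and Klrc1 follow one another with lower levels in S100A4-positive cells. Klri1 is the next Klr gene, followed by Klri2, Klrh1, Klra17 and Klra5. In the fit without a filter, Klri2, Klra17 and Klra5 had log2 fold changes of 1.03, 0.55 and 0.28 and were not called. Klrh1, at -0.30, was called lower there (limma adjusted p = 0.0369). Klra9 and Klra13-ps, which fell, lie farther along. Klra2 lies at the far end of the cluster, at chr6:131219223-131247362.

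**Figure D3:**
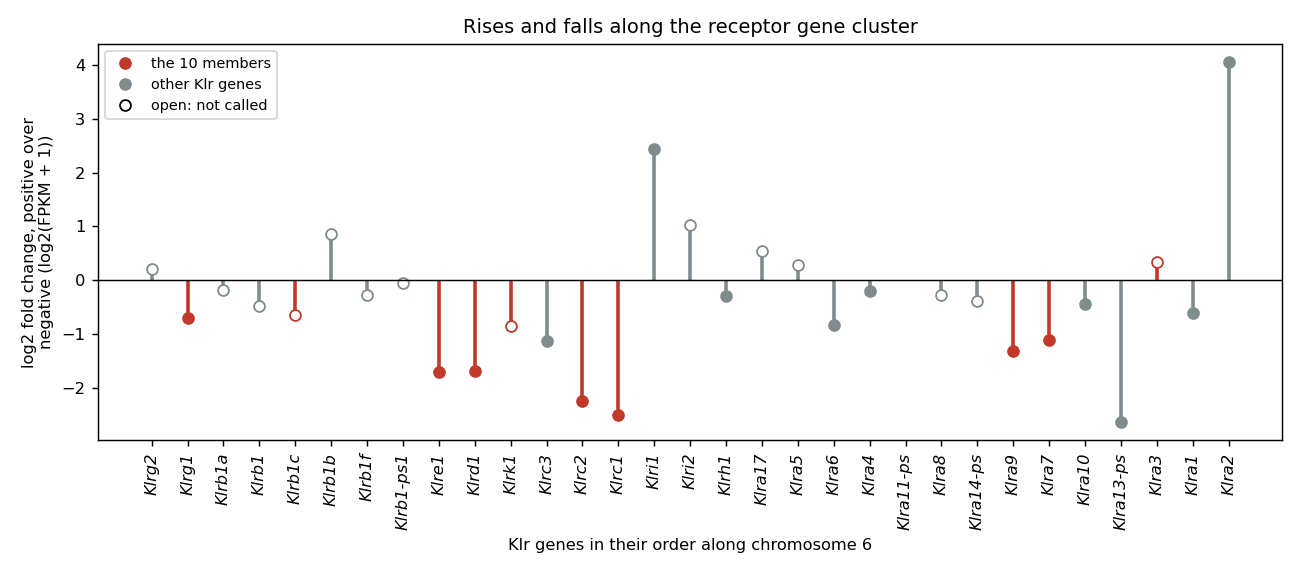
Log2 fold change without a filter on low values (vertical axis, S100A4-positive over S100A4-negative) of the Klr genes in their order along chromosome 6 (horizontal axis, order only, not to scale). Filled points were called at an adjusted p under 0.05 in that fit, in which Klrk1 and Klrb1c were not; Klre1 to Klrc1 lie below 0, and the next gene, Klri1, lies above 0, as does Klra2 at the end, while Klra11-ps, at 0 in all libraries, has no point.

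The stretches before the starts of 2 genes with lower levels, Klrc1 and Klrk1, and of 2 genes that rose, Klri1 and Klra2, are shown because these genes lie in one cluster and moved in opposite directions. Each line gives the 250 bases before the RefSeq start on GRCm38.p6, on the - strand, at chr6:129678974-129679223, chr6:129623865-129624114, chr6:129717133-129717382 and chr6:131247363-131247612 in the order shown, with capitals for matches to the motif letters TGTGGT (Runx factors) or GAGGAA (PU.1) on either strand.
Klrc1: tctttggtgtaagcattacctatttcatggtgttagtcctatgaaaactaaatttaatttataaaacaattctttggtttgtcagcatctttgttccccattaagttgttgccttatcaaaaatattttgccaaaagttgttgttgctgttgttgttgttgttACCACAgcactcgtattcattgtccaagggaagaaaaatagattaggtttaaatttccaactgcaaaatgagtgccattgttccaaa
Klrk1: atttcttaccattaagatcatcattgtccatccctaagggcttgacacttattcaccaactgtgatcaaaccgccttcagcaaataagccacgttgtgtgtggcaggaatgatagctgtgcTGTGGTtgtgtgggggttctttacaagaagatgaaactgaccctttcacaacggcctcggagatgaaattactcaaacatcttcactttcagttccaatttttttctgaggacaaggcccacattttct
Klri1: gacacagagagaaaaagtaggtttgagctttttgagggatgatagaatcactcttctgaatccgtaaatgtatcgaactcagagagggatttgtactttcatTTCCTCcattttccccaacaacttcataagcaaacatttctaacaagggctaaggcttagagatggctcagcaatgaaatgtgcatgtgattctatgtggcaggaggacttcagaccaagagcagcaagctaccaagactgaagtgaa
Klra2: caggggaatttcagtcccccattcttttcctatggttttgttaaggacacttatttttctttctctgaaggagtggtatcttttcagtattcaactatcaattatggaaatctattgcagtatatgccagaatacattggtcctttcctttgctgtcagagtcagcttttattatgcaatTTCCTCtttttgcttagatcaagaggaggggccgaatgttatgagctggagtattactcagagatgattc

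Klrc1 and Klrk1 each held 1 Runx match and 0 PU.1 matches in this window, and Klri1 and Klra2 each held 1 PU.1 match and 0 Runx matches. The letters AGGTGT (T-box factors, either strand) had no match in the 4 windows, and the printed matches do not overlap one another. The RefSeq table had an entry for 8 of the 10 members (not Klrd1 and Klrg1). Of these 8, 5 held a Runx match (Klrb1c, Klrc1, Klrc2, Klre1 and Klrk1), 4 a PU.1 match (Klra3, Klra7, Klra9 and Klrb1c) and 0 a T-box match. In all, 24 Klr genes had an entry, and outside the members 3 held a Runx match, 11 a PU.1 match and 2 a T-box match. The contrast between the 4 printed windows did not hold over the family. Klra9, which fell, held 1 PU.1 match and 0 Runx matches. Over 32851 windows of the same length, 14.05% held the Runx letters, 23.3% the PU.1 letters and 11.8% the T-box letters. Letters that match are a description of the window and do not show that a factor binds there.

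The adaptors through which the activating receptors signal went separate ways. Hcst, which encodes DAP10, the partner of NKG2D, was read at 22.3, 28.5 and 29.1 FPKM in S100A4-positive and 63.5, 70.5 and 68.3 FPKM in S100A4-negative libraries, and fell by 1.32 on the log2 scale (SE 0.13, limma adjusted p = 2.27e-04). Tyrobp, which encodes DAP12, the adaptor of NKG2C and of activating Ly49 receptors that myeloid cells also use, rose to 745, 899 and 866 FPKM in S100A4-positive libraries, against 53.5, 100.2 and 107 FPKM in S100A4-negative libraries. Within a library, Klrk1 stood at -1.49, -0.85 and -0.89 log2 units relative to Hcst in S100A4-positive and at -1.02, -2.05 and -1.51 in S100A4-negative libraries. These values overlapped (difference 0.45, exact two-sided permutation p = 0.2), and the difference was 0.19 without S100A4-negative replicate 2 and 0.71 without S100A4-negative replicate 1.

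Of the 16 adaptor and proximal signalling genes listed, 7 were called higher, 7 lower and 2 in neither direction, and the median log2 fold change was 0.26, beside -0.36 for the tested genes as a whole. Over all tested genes, 19.0% were called higher and 43.4% lower, so the share of lower calls was near that of all genes. Zap70, Lck, Cd247, Fyn and Sh2d1a, which serve T cell and NK cell receptors, had log2 fold changes of -2.55, -2.83, -2.20, -1.05 and -2.35. Syk, the Zap70 relative of myeloid and B cells, rose by 1.70, Fcer1g by 3.66, Plcg2 by 1.13, Vav1 by 1.12 and Grb2 by 0.70. Ptpn6, which encodes the phosphatase SHP-1 that inhibitory Klr receptors recruit, rose by 0.97 (limma adjusted p = 0.0032), while Ptpn11, the gene of SHP-2, had a log2 fold change of -0.49 and lost its call in 6 of 16 alternatives.

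Ligand genes of these receptors were also read in the sorted cells. H2-T23, which encodes the Qa-1 ligand of CD94/NKG2 receptors, was at 121, 156 and 189 FPKM in S100A4-positive and 121, 170 and 166 FPKM in S100A4-negative libraries, and its log2 fold change was 0.022 (SE 0.20, limma adjusted p = 0.931). H60b, an NKG2D ligand gene, fell to 2.29, 5.40 and 2.19 FPKM in S100A4-positive libraries, against 11.1, 7.199 and 9.50 FPKM in S100A4-negative libraries (log2 fold change -1.32, limma adjusted p = 0.00695). Cdh1, the gene of the KLRG1 ligand E-cadherin, fell by 1.47 to 1.98, 1.89 and 1.81 FPKM, against 8.08, 3.21 and 12.5 FPKM in S100A4-negative libraries. H2-K1 and H2-D1, class I genes whose products Ly49 receptors bind, were not called (limma adjusted p = 0.285 and 0.0567), and H2-D1 was called higher in 10 of 16 alternatives. Of 15 ligand genes listed, 14 were in the table and 8 were tested, with 1 higher (B2m), 3 lower (H60b, Cdh1 and Clec2i) and 4 not called. These shares, 12.5% higher and 37.5% lower, were near the 19.0% and 43.4% of all tested genes. B2m lost its call in 7 of 16 alternatives, among them each fit without an S100A4-negative library, those without S100A4-positive replicate 2 or 3, and the fit without a filter on low values, which had the highest limma adjusted p of 0.137.

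The CD3 chains, which mark T cells, fell as well. Cd3d, Cd3e and Cd3g had log2 fold changes of -2.66, -2.61 and -2.40, and their mean level was 20.2, 23.8 and 34.9 FPKM in S100A4-positive libraries, against 153, 170 and 144 FPKM in S100A4-negative libraries. Each member was also expressed relative to the mean log2(FPKM + 1) of these 3 genes in the same library. Klrk1 stood at -1.35, -0.58 and -1.13 log2 units in S100A4-positive libraries, against -2.27, -3.31 and -2.56 in S100A4-negative libraries, a difference of 1.69. Klrg1 stood at -1.67, -1.62 and -2.63 in S100A4-positive libraries, against -3.71, -4.10 and -3.66 in S100A4-negative libraries, a difference of 1.85.

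Relative to CD3, both genes were thus higher in every S100A4-positive library (exact two-sided permutation p = 0.1 each, the smallest possible). Adjusted over the 13 ratios, this permutation p was 0.217 for each. The direction was opposite to that of their own levels, since the CD3 chains fell by more than either gene. With CD3 changes of -2.66, -2.61 and -2.40, a gene at the median of the tested genes (-0.36) also rises against CD3. How many genes do so was not counted, and whether the rise is particular to Klrk1 and Klrg1 was not tested. Klrc1 relative to CD3 averaged -1.28 ± 0.32 log2 units in S100A4-positive and -1.33 ± 0.63 in S100A4-negative libraries (SD, n = 3 each), and the values overlapped (exact two-sided permutation p = 0.9). For Klrc2, Klrd1 and Klre1 the differences of 0.31, 0.86 and 0.84 also came with overlapping values (exact two-sided permutation p = 0.6, 0.3 and 0.2). With a pseudocount of 0.1 they were -0.30, 0.83 and 0.049, and without S100A4-negative replicate 2 they were -0.021, 0.46 and 0.46. The difference for Klrc2 was also 0.096 without S100A4-positive replicate 2, and 0.61 and 0.58 without S100A4-positive replicate 3 and S100A4-negative replicate 1. The low genes Klra3, Klrb1c, Klra7 and Klra9 had differences of 2.88, 1.91, 1.44 and 1.24 (exact two-sided permutation p = 0.1, 0.1, 0.1 and 0.2), which became 3.22, 1.48, -0.062 and 0.12 with a pseudocount of 0.1.

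**Figure D4:**
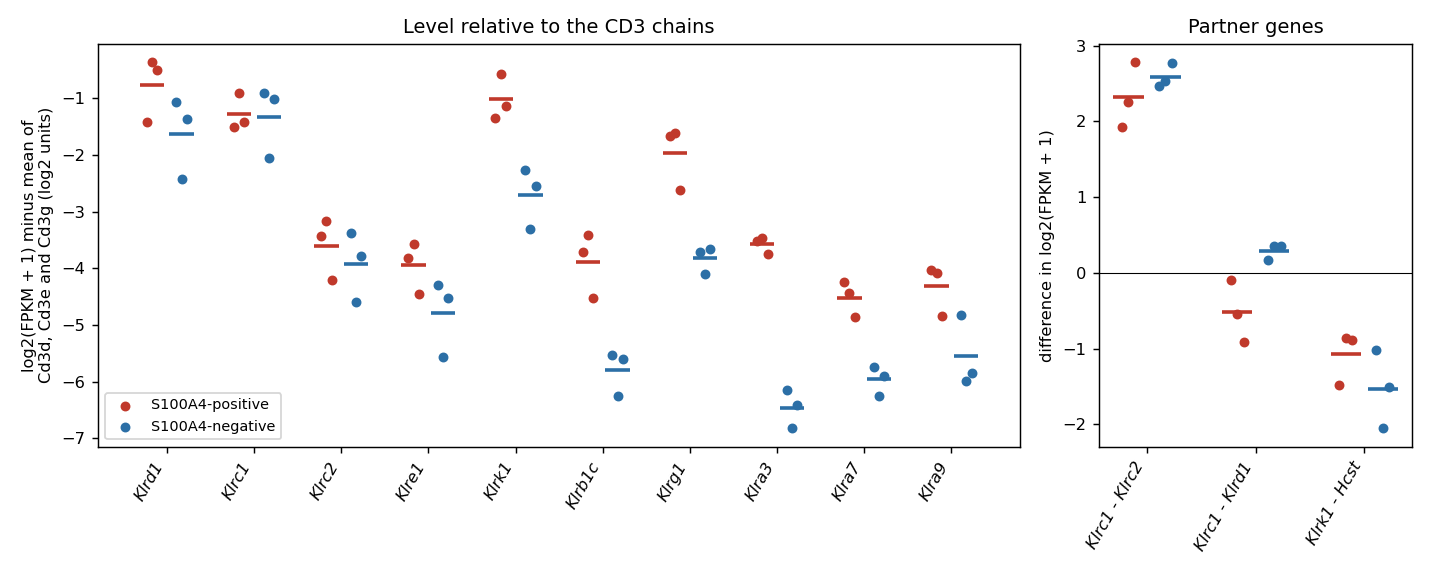
Left, log2(FPKM + 1) of each member minus the mean of Cd3d, Cd3e and Cd3g in the same library (vertical axis); right, the difference in log2(FPKM + 1) between partner genes. Points are the 3 S100A4-positive and the 3 S100A4-negative libraries and lines are group means; Klrk1 and Klrg1 relative to CD3 are higher in every S100A4-positive library, while Klrc1 overlaps around -1.28 and -1.33.

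Markers of other cell types moved with the groups. Of 14 NK cell markers outside the Klr family, which cytotoxic T cells share in part, 12 were tested, and 11 fell and 1 rose, with a median of -2.36. Nkg7, Eomes and Gzma had log2 fold changes of -2.93, -2.89 and -2.60, and the riser was Cd244a with 3.10. The summed level of the list was 154 to 174 FPKM in S100A4-positive and 579 to 852 FPKM in S100A4-negative libraries. Ncr1, the defining NK cell receptor gene NKp46, was near 0 in both, at 0, 0.770 and 0.585 FPKM in S100A4-positive and 0.159, 0.152 and 0.145 FPKM in S100A4-negative libraries. All 6 genes of the T cell receptor complex and CD8 fell, with a summed level of 101 to 178 FPKM in S100A4-positive and 791 to 935 FPKM in S100A4-negative libraries.

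All 12 macrophage and monocyte markers rose, with a median of 3.76 and a summed level of 6392 to 7247 FPKM in S100A4-positive and 442 to 612 FPKM in S100A4-negative libraries; Spic, Csf1r and Cd68 rose by 5.65, 5.52 and 4.23. Of 7 dendritic cell markers, 6 rose and 0 fell (Itgax by 2.94 and Flt3 by 2.62), or 3 rose without S100A4-positive replicate 2 or 3, and the summed level was 354 to 490 FPKM in S100A4-positive and 47.3 to 82.8 FPKM in S100A4-negative libraries. All 8 B and plasma cell markers and all 7 neutrophil markers fell, with summed levels of 345 to 542 and 408 to 1704 FPKM in S100A4-positive and 2042 to 2916 and 3260 to 4857 FPKM in S100A4-negative libraries. No gene of these lists was at 0 in every library. The part of these other cell types in the receptor genes' differences was not tested.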

How the data were processed

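Per the labels, RNA from sorted CD8+ effector-memory T cells was poly-A selected and sequenced, with 3 libraries per group. Per the submitters' processing notes, HISAT2 2.1.0, Cufflinks, Cuffnorm and the build mm10 were used, without roles; how reads were counted, and whether by strand, is not given in the sources used here. The authors deposited FPKM for 55951 genes and a comparison of both groups whose columns, per the file headers, are the mean normalized counts of each group (a signal), log2 fold changes, p-values and adjusted p-values.

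Reads were recovered from FPKM and the authors' group means; all 135018 values above 0 lay within 0.02 of a whole read. Genes with a mean of at least 1 FPKM over the 6 libraries were tested with limma 3.58.1 (R 4.3.3) on log2(FPKM + 1), a mean-variance trend in the prior and Benjamini-Hochberg adjustment over all 13241. A count test was not the main test, as the table holds FPKM. Ratios within libraries were tested with exact permutations in Python 3.11.15 and scipy 1.17.1. Positions and shared 50-base stretches come from GENCODE M21, promoters from RefSeq. The steps were tested on simulated data.

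The members and the 10 gene lists (other Klr genes, adaptors and signalling, ligands, NK cell, T cell receptor and CD8, invariant and gamma-delta T cell, macrophage and monocyte, dendritic cell, B and plasma cell, neutrophil) were chosen with earlier results of these data known. Named are all members, any gene of the first 3 lists, up to 4 called genes with the largest change of each other list with the CD3 chains, Ncr1 (added after its values were seen), and the 5 genes most like Klrd1 and Klrk1; some genes this rule names are not reported here. The alternatives were another pseudocount, no filter or a filter of 5 FPKM, median-of-ratios rescaling, quantile normalization, no trend, array weights, a block for the replicate number and each library left out; voom on recovered reads was added after seeing the data.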

Additional observations from a re-analysis of the deposited data

How the results depend on the processing

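The falls of Klrc1, Klrc2, Klrd1, Klre1 and Klra9 kept their direction and call in every alternative in which they were tested (16, 16, 16, 15 and 15), with limma adjusted p of at most 0.0478, and no member reversed. The number of members called lower, 8 as reported, was 5 with a filter of 5 FPKM (fewer members tested), with median-of-ratios rescaling, with quantile normalization and with voom on the authors' size factors; it was 6 to 8 with each library left out. Over all genes, 5741 were called lower and 2512 higher as reported, 3286 lower and 3618 higher with median-of-ratios rescaling, and 3156 lower and 3715 higher with voom on those size factors. These scalings moved the median of all genes to -0.027 and -0.019, and quantile normalization moved it to -0.16. With the replicate number as a block, 6 members were called lower, without Klrk1 and Klrb1c (limma adjusted p = 0.0804 and 0.0803). Same-numbered libraries had correlated deviations of 0.38, 0.083 and 0.37, and those of different numbers ran from -0.38 to 0.15. The numbers were not taken as pairs because the labels state no pairing, and these values do not exclude it. Not every library was most like its own number. Relative to CD3, Klrc1 turned to -0.015 with a pseudocount of 0.1 and lay between -0.32 and 0.26 with each library left out (-0.13 and -0.32 without S100A4-positive and S100A4-negative replicate 2), Klrc2 turned to -0.30 and lay between -0.021 (without S100A4-negative replicate 2) and 0.61, and Klra7 turned to -0.062. Klrc1 relative to Klrc2 turned to 0.28 with that pseudocount. The ligand list's median, -0.12 as reported, turned to 0.25 with median-of-ratios rescaling and lay between -0.25 and 0.042 (without S100A4-positive replicate 1) with each library left out. The cause was not tested. Low read numbers limit Klra3, Klra7, Klra9 and Klrb1c.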

Other observations

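Markers of invariant and gamma-delta T cells, which can also carry Klr receptors, were low and higher in S100A4-positive cells. Of 9 genes listed, 7 were in the table and 5 were tested, and all 5 rose, with a median of 1.38 beside -0.36 for all genes. Their summed level was 19.7 to 26.3 FPKM in S100A4-positive and 4.74 to 8.37 FPKM in S100A4-negative libraries. Zbtb16, the transcription factor PLZF of invariant T cells, was at 7.08, 4.33 and 5.81 FPKM in S100A4-positive and 1.299, 1.51 and 1.48 FPKM in S100A4-negative libraries, and Trdv4 and Il23r rose by 1.51 and 1.38. Trdc, the constant region of the delta chain, was at 0.931, 1.73 and 1.19 FPKM in S100A4-positive and 1.20, 0.553 and 0.361 FPKM in S100A4-negative libraries, with overlap.

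Among 10888 protein-coding genes compared over the 6 libraries, as a description in which both groups are pooled, the genes whose log2(FPKM + 1) ran most like Klrd1 were Rpl19, Rwdd1, Nck2, Nlgn2 and Phc1, with Pearson r from 0.983 to 0.988. Those most like Klrk1 were Cd7, Rras2, Heatr9, Nck2 and Aamdc, with r from 0.983 to 0.992. Klrd1 and Klrk1 had r = 0.981 with each other.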
